A study of Homo sapiens with 4 samples.

Results

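Splicing of 9 genes of the SR protein family was examined in HEK293T cells, a human embryonic kidney cell line, with and without an antisense oligonucleotide (ASO) against the small nucleolar RNA SNORD89. The genes were SRSF1, SRSF2, SRSF3, SRSF4, SRSF5, SRSF6, SRSF7, SRSF10 and SRSF11. Their rows were taken from the authors' deposited table of skipped exons by gene symbol, and events with a mean of at least 20 junction reads over the 4 libraries were used. This left 43 events on 33 exons, out of 45 events of these genes and of 54503 such events in the whole table. An event is an exon with an exon on either side, and its junction reads support either its inclusion or its skipping. The inclusion level is the share of transcripts that hold the exon, from 0 to 1, after the reads of each form are divided by that form's length.

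The groups were 2 libraries labelled Snord89 ASO and 2 labelled as having no treatment, all from 293T cells and described as biological replicates. The ASO was a 5-10-5 MOE gapmer, a DNA strand with modified ends, of the kind that makes RNase H cut the RNA it binds, given by lipid transfection at 70 nM. RNA was taken 48 hours later, and poly(A) RNA was sequenced as pairs of 150-base reads. The labels of the untreated cells carry the same transfection protocol, and no control ASO is named in them. Neither the labels nor the headers say which set of the table is the treated one, so directions are given as first set against second set, with libraries numbered by their place in the table's cells. In such bulk samples, fewer cells that use an exon and a lower use per cell cannot be told apart.

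SR proteins bind exons through RNA recognition motifs and recruit the splicing machinery through a domain rich in arginine and serine. Most of them limit their own amount by splicing: a surplus of the protein, or of a relative, promotes an exon in its own transcript that carries a premature stop codon. Such a transcript is destroyed by nonsense-mediated decay, and the exon is called a poison exon. Because the transcripts that hold it are short-lived, its level in poly(A) RNA is lower than the rate at which it is spliced in.

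A poison exon was defined here from the annotation, as an exon found in a GENCODE 29 transcript of the decay type and in no coding sequence of a protein-coding transcript. By this rule 15 of the 33 exons were poison exons: 5 in SRSF4, 3 in SRSF7, 2 each in SRSF2 and SRSF11, and 1 each in SRSF1, SRSF3 and SRSF6. SRSF5 and SRSF10 had none among the measured exons. Another 14 exons held coding sequence of a protein-coding transcript, 3 met neither definition, and 1, in SRSF11, had no match. In 9 of the 15 the stop codon of the decay transcript lay inside the exon: TGA in 6, TAA in 2 and TAG in 1. The remaining 6 were the exons of 98 and 104 nt in SRSF2, those of 136, 184 and 228 nt in SRSF4, and that of 109 nt in SRSF11.

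The reading frame runs into these exons and ends soon, which is the feature that gives them their name. The sequences below are the sense strand from the first base of the exon to the stop codon, which is in capitals; they come from GENCODE 29 transcripts (GRCh38) of exons matched by spacing and length, and the coordinates are those of the table (hg19).
SRSF3, 456 nt, chr6:36567598-36568053, plus strand: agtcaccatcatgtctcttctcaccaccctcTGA
SRSF7, 276 nt, chr2:38976040-38976315, minus strand: ggcagaaaatttgagacggTGA
SRSF7, 449 nt, chr2:38976040-38976488, minus strand: gtttcttcgtttgagtcagtcgcctTGA
SRSF4, 195 nt, chr1:29486376-29486570, minus strand: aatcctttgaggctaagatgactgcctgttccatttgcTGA
SRSF4, 175 nt, chr1:29492402-29492576, minus strand: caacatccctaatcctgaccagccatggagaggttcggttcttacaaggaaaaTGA
SRSF11, 117 nt, chr1:70697542-70697658, plus strand: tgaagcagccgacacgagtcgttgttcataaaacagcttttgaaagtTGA

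In these 6 exons the stop codon ended 22 to 56 nt from the exon's 5′ end. In SRSF6 and SRSF1 it lay farther in, at 152 nt of 268 and at 195 nt of 203. After the stop, 422 nt remained in the SRSF3 exon and 421 nt in the longer SRSF7 exon, against 8 nt in the SRSF1 exon.

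**Figure D1:**
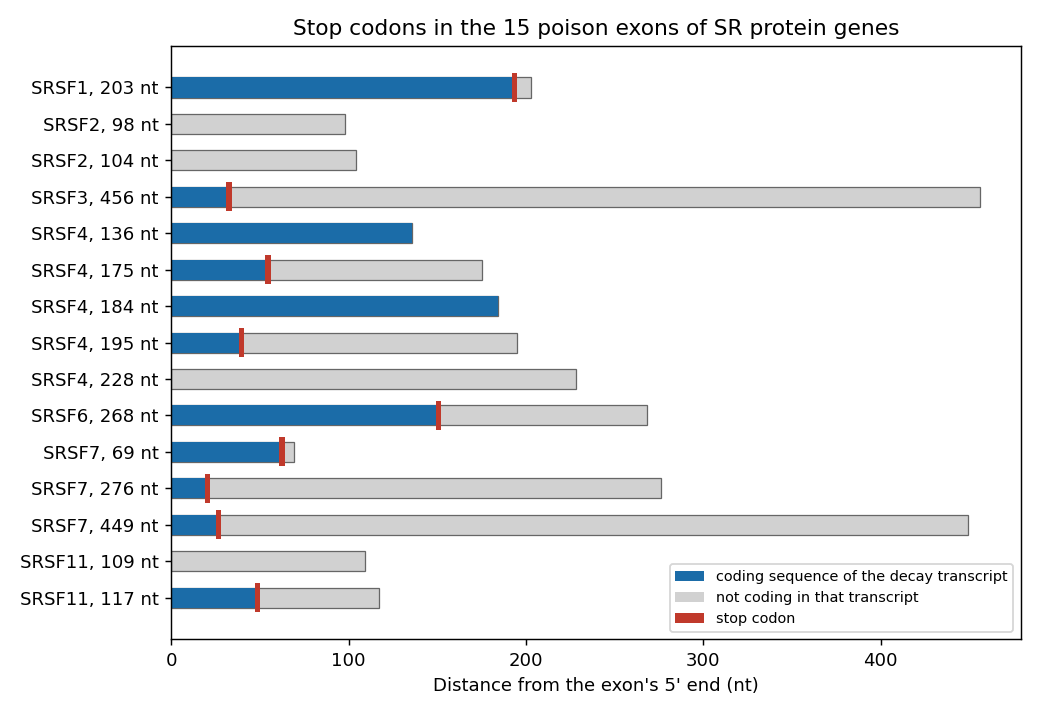
Each bar is 1 of the 15 poison exons, drawn to its length in nucleotides from its 5′ end on the x axis, with the coding sequence of the decay transcript in blue and its stop codon in red. The stop lies close to the 5′ end in most of the 9 exons that hold it, and 6 exons hold no stop of their own.

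Summed over all events of the table, junction reads numbered 38613055 and 39012939 for the first set and 42868431 and 43929373 for the second. A junction shared by several events counts in each, so these sums are not the depths of the libraries. Median reads per tested event were 222 and 199 for the first set, then 157 and 171 for the second. Events of the SR genes were deep, with a median of 643 reads per library and event against 190.0 for all tested events. Library 2 of the second set stood apart in the table, with no reads on 129 tested events against 19, 0 and 0 in the others. It was the library farthest from the other 3 in 17 of the 43 SR gene events, against 7 to 10 for each other library. The share over all tested events was not computed, and the 43 events rest on only 33 sets of skipping reads. Of 5 genes fixed as typical of HEK293 cells, VIM, CDH2 and PAX2 had skipped exon events and NEFM and LIN28B had none, and none of 6 genes of other lineages had an event. A table of skipped exons lists no gene without such an event, so this check is a weak one.

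None of the 43 events was called at a false discovery rate (FDR) under 0.05 and a difference of at least 0.1 in the authors' deposited table, where 2.71% of all tested events were called, 1.34% higher and 1.37% lower in the first set. With the authors' rMATS test, 11 of the 43 had an unadjusted p under 0.05 (25.6%, against 14.3% of all tested events) and 5 had an FDR under 0.05 (11.6%, against 5.72%), of which 4 were higher in the first set (9.30%, against 3.03%). These 5 rest on 3 sets of skipping reads, since both SRSF1 events share theirs and so do both SRSF11 events. The quasi-binomial model takes the scatter between libraries as its error, mostly as estimated over other events. It passed none of the 43 at an adjusted p under 0.05 and 1 event in the whole table (0.00183%). Its adjusted p-values for the SR gene events lay between 0.855 and 0.956, and 4 of the 43 had an unadjusted p under 0.05, against 2.81% of all tested events. Limma on the log2 ratio passed none, with 1 of 43 at an unadjusted p under 0.05 (4.87% of all tested events). Limma passed no event of the whole table either and found none of the changed events in simulated data, so its count of 0 carries no information on these genes.

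The difference in inclusion level, first set minus second, was under 0.01 in size for 26 of the 43 events and under 0.05 for 36. Its median size was 0.00416 for the SR gene events and 0.0114 for all tested events, which had fewer reads. Signs were mixed, with 25 events higher and 18 lower in the first set (43.5% of all tested events were higher), and the median difference was 0.000976, against -0.00140 over all tested events. The median turned to -0.0314 over the 11 events with a mean inclusion level between 0.05 and 0.95. Both events that differed by at least 0.1 were shallow, with 26 and 33.75 reads per library: a second event of the SRSF4 exon of 136 nt (-0.104) and of the SRSF11 exon of 33 nt (-0.134), with FDR values of 0.274 and 0.916 in the authors' deposited table. Over all tested events 7.13% differed by that much.

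**Figure D2:**
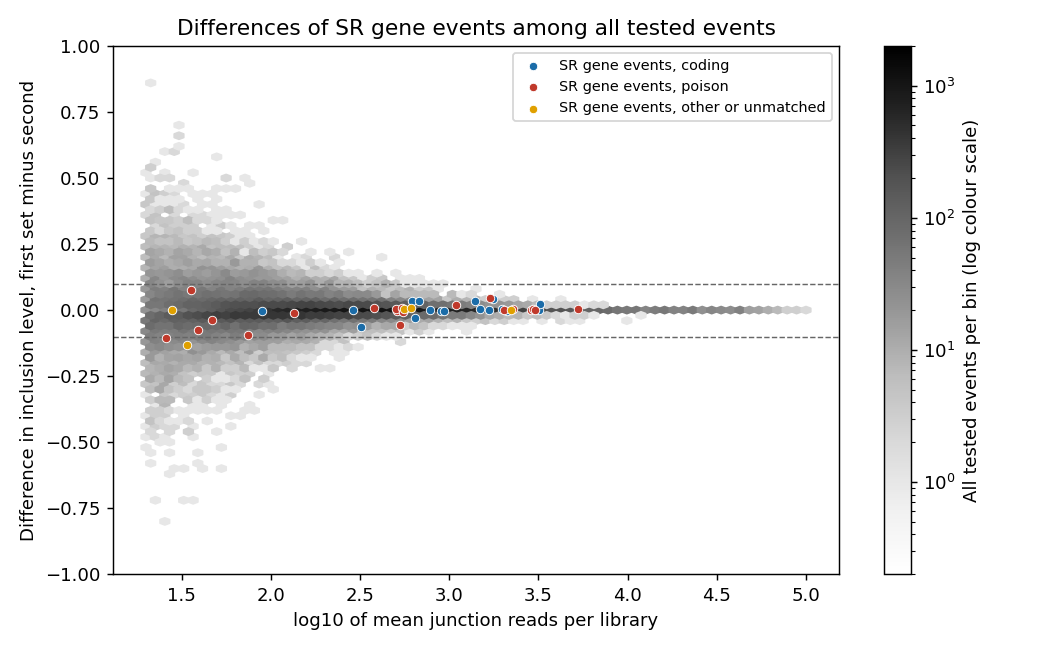
The y axis is the difference in inclusion level, first set minus second, and the x axis the log10 of the mean junction reads per library, with all 54503 tested events as grey bins and the 43 SR gene events as points. The 2 SR gene points beyond the dashed lines at 0.1 and -0.1 are at the shallow end.

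In 14 of the 43 events every library of a set lay on the same side of the other set, that is, the sets did not overlap (32.6%), against 22.8% of all tested events. The share over tested events with a mean of at least 500 reads was 23%, against 11 of the 31 SR gene events of that depth. With 2 libraries against 2, an exact permutation test of a single event cannot give a two-sided p below 0.333, so these counts are descriptions. Of the 14 events, 10 were higher in the first set and 4 lower.

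Poison exons of the shuttling SR proteins SRSF3, SRSF7 and SRSF6, and of SRSF2, were measured at high depth. SRSF3 takes part in splicing, export and 3′ end formation of mRNA. Its poison exon had inclusion levels of 0.0176 (0.0152 to 0.0204, the 95% Wilson interval) and 0.0163 (0.0140 to 0.0189) for the first set, and of 0.0132 (0.0111 to 0.0156) and 0.0129 (0.0110 to 0.0152) in the second. Both libraries of the first set were above both of the second, although the intervals of neighbouring libraries overlapped. The counts behind them were 176, 166, 130 and 146 inclusion reads beside 4905, 5022, 4870 and 5587 skipping reads. The difference was 0.00391, with an unadjusted p of 0.0442 and FDR 0.304 per the authors' deposited table. Once the poison exon was in, the 39-nt coding exon after it was almost never left out: junctions that skipped it from the poison exon had 0, 0, 1 and 0 reads.

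SRSF6 had the second highest inclusion of the poison exons with a mean level below 0.5. The 268-nt exon at 42087793 to 42088060 on chromosome 20 was included at 0.0913 and 0.0937 for the first set, then at 0.0826 and 0.0664 for the second, from 867 to 1380 reads. The sets did not overlap, and the lowest value was that of library 2 of the second set. The difference of 0.0180 became 0.00995 without that library, and its FDR was 0.410 in the authors' deposited table.

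SRSF7, an export adaptor like SRSF3, had 3 poison exons. Those of 276 and 449 nt end at the same 5′ splice site and start at different 3′ splice sites, so they share skipping reads and part of their inclusion reads. The shorter form was included at 0.0110 and 0.0154 for the first set, then 0.0142 and 0.00702 for the second. The longer form, with the higher level in every library, was at 0.0293 and 0.0315 and at 0.0329 and 0.0245. In both forms the lowest level was that of library 2 of the second set, the sets overlapped, and the sign of the difference changed without that library, from 0.00261 to -0.000964 for the shorter form and from 0.00168 to -0.00251 for the longer. The exon of 69 nt was close to unused, with 2 inclusion reads in library 1 of the first set and 0 in the others, beside 2504 to 3245 skipping reads. A count of 0 allows inclusion levels of up to 0.000772, 0.000632 and 0.000669 in those 3 libraries, counting error only.

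In SRSF2, a protein that stays in the nucleus, decay follows from splicing behind the normal stop codon, and neither of its poison exons holds coding sequence. The 104-nt exon at 74731854 to 74731957 on chromosome 17 was included at 0.0166 and 0.0169 for the first set, then at 0.0207 and 0.00464 for the second. The second set thus held both the highest and the lowest value, from 76 and 17 inclusion reads. Its difference of 0.00407 turned to -0.00396 without library 2 of the second set, and the FDR was 0.434 in the authors' deposited table. The event of the 98-nt exon, at 74731143 to 74731240, had 0, 1, 0 and 0 skipping reads beside 1938 to 2112 inclusion reads. The 3′ splice site of this exon is also that of the longer exon that flanks the 104-nt exon. Its inclusion reads therefore do not show how often the 98-nt form itself was used.

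SRSF4, a long SR protein related to SRSF5 and SRSF6, had 5 poison exons at 2 places of its transcript. The forms of 195 and 228 nt share a 5′ splice site and lie between the same coding exons. The 195-nt form was included at 0.0112 and 0.0156 for the first set, then 0.0132 and 0.0186 for the second, from 13 to 17 inclusion reads. The 228-nt form was included at 0.00952 and 0.0102, and at 0.00205 and 0.0112, from 2 to 11 inclusion reads. Both overlapped between the sets, and each difference changed sign when 1 library of the second set was left out: to 0.000252 without library 2 for the 195-nt form and to -0.00140 without library 1 for the 228-nt form.

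The other 3 poison exons of SRSF4, of 136, 184 and 175 nt in transcript order, lie between the same coding exons, in a long intron. Measured against the direct junction of the exons around them, the 136-nt exon was included at 0.00737 and 0.0122 for the first set, then at 0.0150 and 0.0207 for the second. Both libraries of the second set were higher, with a difference of -0.00807 and FDR 0.334 per the authors' deposited table. On its junctions to the outer coding exons alone, the 184-nt exon went the other way, at 0.00236 and 0.0109 against 0.000970 and 0. These came from 3, 13, 1 and 0 inclusion reads, and the count of 0 allows a level of up to 0.00358 on those junctions. Between the 136- and 175-nt exons, the exon had 57, 46, 28 and 22 inclusion reads, at levels of 1, 0.852, 1 and 1. The 184-nt exon was thus present in both libraries of the second set. Transcripts that held the 184-nt exon mostly went on to the 175-nt exon. That step had levels of 0.938 (0.834 to 0.978) and 0.843 (0.734 to 0.913) for the first set, against 0.966 (0.832 to 0.994) and 1 (0.845 to 1) in the second, with only 3, 9, 1 and 0 skipping reads. Its difference was -0.0926 with FDR 0.0217 per the authors' deposited table, and an unadjusted p of 0.239 in the quasi-binomial model. It moved to -0.0456 without library 2 of the first set and to -0.140 without library 1 of the first set.

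SRSF11, a larger protein of the SR-related group, had the most used poison exon with a mean level below 0.5. The 117-nt exon at 70697542 to 70697658 on chromosome 1 was included at 0.151 (0.131 to 0.174) and 0.189 (0.164 to 0.217) for the first set, against 0.243 (0.206 to 0.283) and 0.208 (0.173 to 0.247) in the second. Levels in the second set were above those of the first, but the intervals overlapped in every pair of libraries across the sets except library 1 of each. The reads were 185, 183, 139 and 109 for inclusion and 581, 439, 243 and 233 for skipping. The difference was -0.0548, with FDR 0.124 per the authors' deposited table and an unadjusted quasi-binomial p of 0.0616. It was -0.0358 without library 1 of the first set and -0.0373 without library 1 of the second. With the exon after the 117-nt exon as its downstream neighbour, the 109-nt exon upstream was rare. It had 13 and 5 inclusion reads for the first set, then 0 and 0 for the second. Skipping reads were 581, 439, 243 and 233. Its levels there were 0.0128 and 0.00653, against limits of 0.00717 and 0.00748 from a count of 0. The lower value of the first set thus lies within what the second set allows in that event. With the 117-nt exon as its downstream neighbour, the 109-nt exon had 17, 13, 2 and 7 inclusion reads. Skipping reads were then 35, 30, 25 and 14. In that event the second set held both the lowest and the highest level, 0.0442 and 0.224. The counts of 0 therefore do not show that the exon was absent from the second set.

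**Figure D3:**
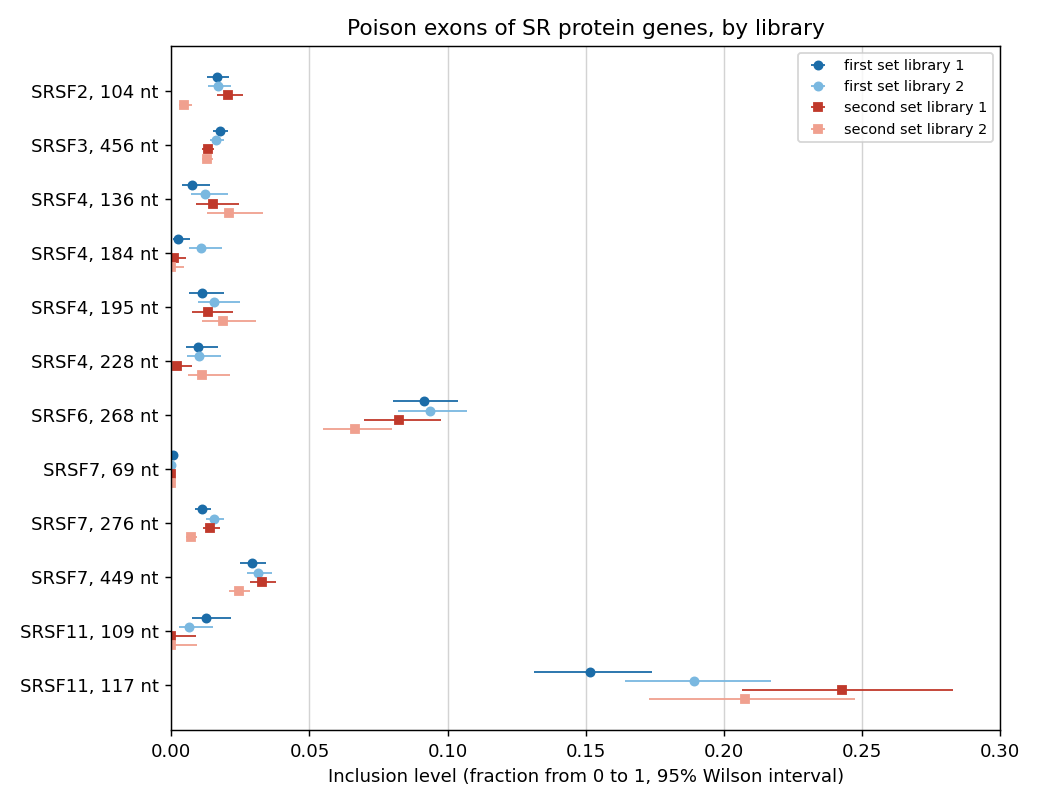
Inclusion level on the x axis, as a fraction, for the 12 poison exons with a mean level below 0.5; each point is a library with its 95% Wilson interval, blue for the first set and red for the second. The mean over libraries is below 0.02 in 9 of these exons, the SRSF7 exon of 449 nt lies between 0.0245 and 0.0329, SRSF6 lies between 0.0664 and 0.0937, and the SRSF11 exon of 117 nt lies between 0.151 and 0.243.

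Among these 12 exons 9 were higher in the first set and 3 lower (1794 and 1595 of the 3390 poison exons of other genes, at any level), with a median difference of 0.00291 and none with an FDR under 0.05 in the authors' deposited table. The 3 lower ones were the 136- and 195-nt exons of SRSF4 and the 117-nt exon of SRSF11. In all, 8 of the 15 poison exons had sets that did not overlap, against 28.5% of the poison exons of all genes by the same rule. The poison exons of other genes, 3390 in number, had a median inclusion of 0.0668, and 46.8% of them were below 0.05. For the SR genes the median was 0.0147 and 10 of 15 were below 0.05. The SR poison exons were longer, with a median of 184 nt against 121 nt, and sat between shorter introns, with medians of 1230 nt against 3932.5 nt for both flanking introns together. They had more reads, a median of 1095 against 160, and a lower GC content, 46.2% against 50.6%. Of the 15, 6 had a length divisible by 3 (40.0%), against 29.7% in other genes. No test was made of these descriptions.

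The smallest FDR of the family belonged to SRSF1, a shuttling SR protein that promotes use of nearby 5′ splice sites. The exon concerned occurs in a coding form of 187 nt (chromosome 17, 56082775 to 56082961) and a form of 203 nt, classed here as a poison exon. The 203-nt form, which has the smallest FDR, differs by 16 nt at its 3′ end. Its stop codon in the decay transcript lies in that extension. The 203-nt event had levels of 0.985 (0.976 to 0.990) and 0.981 (0.971 to 0.988) for the first set, and of 0.954 (0.936 to 0.967) and 0.922 (0.900 to 0.939) in the second. The sets did not overlap, nor did the intervals of any library of the first set with any of the second. Skipping reads numbered 17 and 18 for the first set, then 32 and 54 for the second, beside 2205, 1889, 1320 and 1277 inclusion reads. The difference was 0.0452, with FDR 6.09e-07 per the authors' deposited table. For the 187-nt event, which uses the same skipping reads, the difference was 0.0431 and the FDR 8.57e-07 in the authors' deposited table. Both differences stay below the 0.1 asked of a call. Quasi-binomial p-values were 0.000718 and 0.000837 before adjustment and 0.855 after it, while a limma fit with precision weights gave adjusted p-values of 7.03e-05 and 9.32e-05; 0.657% of all tested events passed that fit. Without library 2 of the second set the differences were 0.0293 and 0.0277, and without the correction for form lengths 0.0236 and 0.0225.

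Neither 187 nor 203 is divisible by 3. Skipping of the SRSF1 exon joins the exon that starts at 56083162 to the one that ends at 56082402 in the table's coordinates. Inclusion of the 187- and 203-nt forms cannot be told apart fully, because both use the same 3′ splice site.

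Beside SRSF1 and the 175-nt exon of SRSF4, SRSF11 held 2 events with an FDR under 0.05 in the authors' deposited table, named here after their values were seen. Its exon of 228 nt at 70687295 to 70687522, which holds coding sequence, also occurs as a form of 225 nt that starts 3 nt later. The 228-nt event was included at 0.996, 0.995 and 0.994 in 3 libraries and at 0.924 (0.878 to 0.954) in library 2 of the second set. Skipping reads were 2, 2, 1 and 14. The authors' deposited table gives FDR values of 0.00985 and 0.0126 for the 2 forms, and their differences of 0.0360 and 0.0339 were 0.000875 and 0.00109 without library 2 of the second set. The value thus rests on that library. Limma with precision weights gave adjusted p-values of 0.0238 and 0.0203.

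Alternative coding exons of intermediate inclusion were found in SRSF4, SRSF7 and SRSF10. The 90-nt exon of SRSF4 at 29476615 to 29476704 on chromosome 1, of a length divisible by 3, was included at 0.927 (0.909 to 0.941) and 0.924 (0.906 to 0.939) for the first set, against 0.898 (0.877 to 0.917) and 0.882 (0.859 to 0.902) in the second. The libraries of the second set were lower, although neighbouring intervals overlapped, from 87 and 97 skipping reads against 73 and 70. The difference was 0.0353, with FDR 0.0697 per the authors' deposited table and an unadjusted quasi-binomial p of 0.0545.

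The sequences of the alternative coding exons of SRSF7 and SRSF10 show how short they are, and the capitals mark the 3 bases by which the 54-nt form of the SRSF10 exon exceeds the 51-nt form; both are from GENCODE 29 transcripts, on the sense strand.
SRSF7, 36 nt, chr2:38973286-38973321, minus strand: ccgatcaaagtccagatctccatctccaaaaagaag
SRSF10, 54 nt, chr1:24298063-24298116, minus strand: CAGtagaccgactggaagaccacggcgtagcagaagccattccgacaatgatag

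In SRSF7 the 36-nt exon, one of the deepest alternative exons of the family with 3228.5 reads per library, was included at 0.866 (0.852 to 0.879) and 0.885 (0.872 to 0.897) for the first set, against 0.864 (0.852 to 0.875) and 0.842 (0.828 to 0.855) in the second. The sets met almost at the same value, 0.866 and 0.864, and the difference of 0.0227 had FDR 0.498 per the authors' deposited table. It was 0.0117 without library 2 of the second set, and 0.0133 without library 2 of the first.

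SRSF10 differs from the classical SR proteins in that it acts as a splicing repressor once dephosphorylated, as in heat shock. Its 51- and 54-nt exons share skipping reads, 76 and 48 for the first set, then 46 and 23 for the second. The 54-nt event, the deeper, was included at 0.859 and 0.914 for the first set, then at 0.890 and 0.946 for the second, so the sets overlapped. The 51-nt event was at 0.744 (0.694 to 0.789) and 0.818 (0.769 to 0.859) against 0.822 (0.772 to 0.863) and 0.871 (0.815 to 0.912), lower in the first set. Unadjusted p-values were 0.0460 and 0.0296 and FDR values 0.312 and 0.232 in the authors' deposited table. Within each set the libraries differed by about as much as the sets did: the difference of -0.0653 of the 51-nt event was -0.0284 without library 1 of the first set, and the difference of -0.0314 of the 54-nt event was -0.00318 without library 2 of the second set. Paired with another downstream exon, both forms were included at 0.977 or more in every library.

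In SRSF11 a 33-nt exon at 70712800 to 70712832, neither coding nor poison by these definitions, was included at 0.0586 and 0.0636 for the first set, then at 0.0856 and 0.0242 for the second. The second set held the highest and the lowest level, and the difference of 0.00621 became -0.0245 without library 2 of the second set.

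In SRSF11 a further 33-nt exon at 70688449 to 70688481 had 2, 5, 1 and 0 inclusion reads beside 901, 713, 315 and 291 skipping reads, and the unmatched exon of 62 nt had 3, 1, 3 and 0 beside 35, 30, 25 and 14.

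SRSF5, a small SR protein close to SRSF4 and SRSF6, included its measured coding exons nearly always. These exons, of 70 and 111 nt, had between 0 and 7 skipping reads per library beside 2021 to 3658 inclusion reads. The event of an exon of 1743 nt, of neither class, had 0, 1, 0 and 0 skipping reads beside 1920 to 2351 inclusion reads. This exon starts with the exon before the 70-nt exon and ends with the exon after it. Its inclusion reads therefore do not show how often the 1743-nt form itself was used. The 149-nt coding exon of SRSF6 was also included in full, apart from 7 skipping reads in library 2 of the second set. The remaining coding exons, of 215 nt in SRSF4, 39 nt in SRSF3, and 82 and 134 nt in SRSF11, had at most 5 skipping reads in any library.

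**Figure D4:**
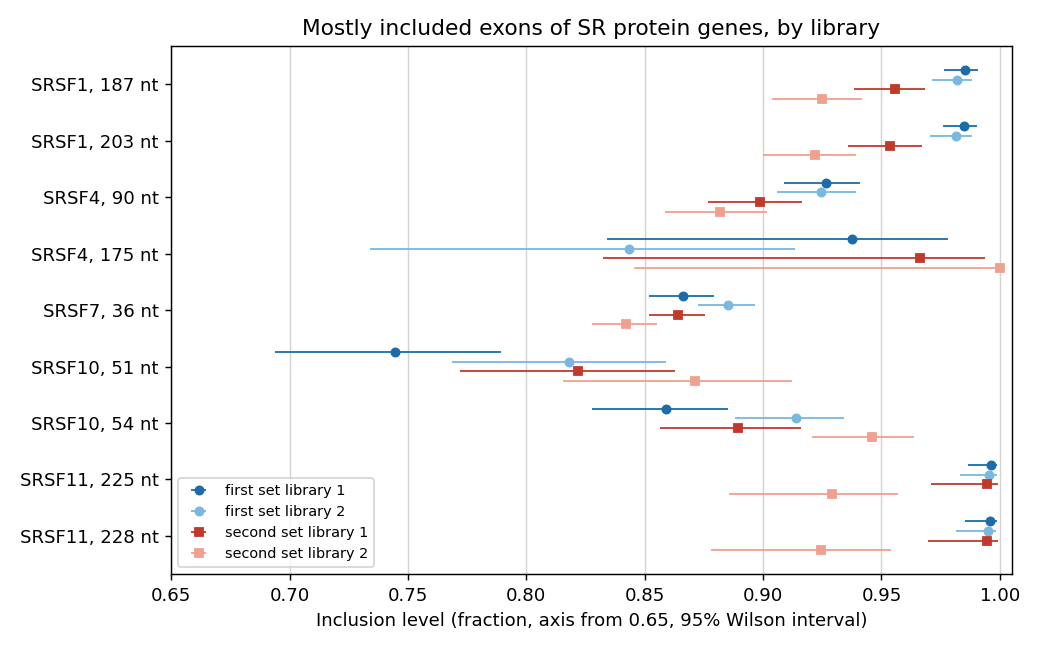
Inclusion level on the x axis, as a fraction from 0.65 upward, for the 9 mostly included exons with visible skipping; points are libraries with 95% Wilson intervals, blue for the first set and red for the second. The SRSF1 pair shows the sets apart, while in the SRSF11 pair only library 2 of the second set is low.

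Junction reads per gene were compared as a description, since a table of skipped exons counts only junctions of its events, some of them more than once, and is no measure of gene expression. Counts were scaled to 1000000 junction reads of a library, summed over all events. SRSF11 had 210.4 and 167 reads for the first set, then 85.7 and 78.7 for the second. Its ratio of second to first set was 0.435. SRSF1 had 116 and 99.1 against 64.5 and 61.8, a ratio of 0.586, and SRSF6 had 96.9 and 91.3 against 56.8 and 57.8, a ratio of 0.609. SRSF7 had 278 and 299 against 304 and 292, a ratio of 1.03, and was the only member whose sets overlapped. The ratios of SRSF10, SRSF4, SRSF2, SRSF5 and SRSF3 lay between, at 0.703, 0.727, 0.846, 0.902 and 0.936. For 8 of the 9 genes the sets did not overlap and the second set was lower. Over the 10383 genes compared, 73.9% had sets that did not overlap and the median ratio was 0.766, so members lie on both sides of the typical gene. The 16.7% of genes with a ratio below that of SRSF11 compare with 77.9% for SRSF7.

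**Figure D5:**
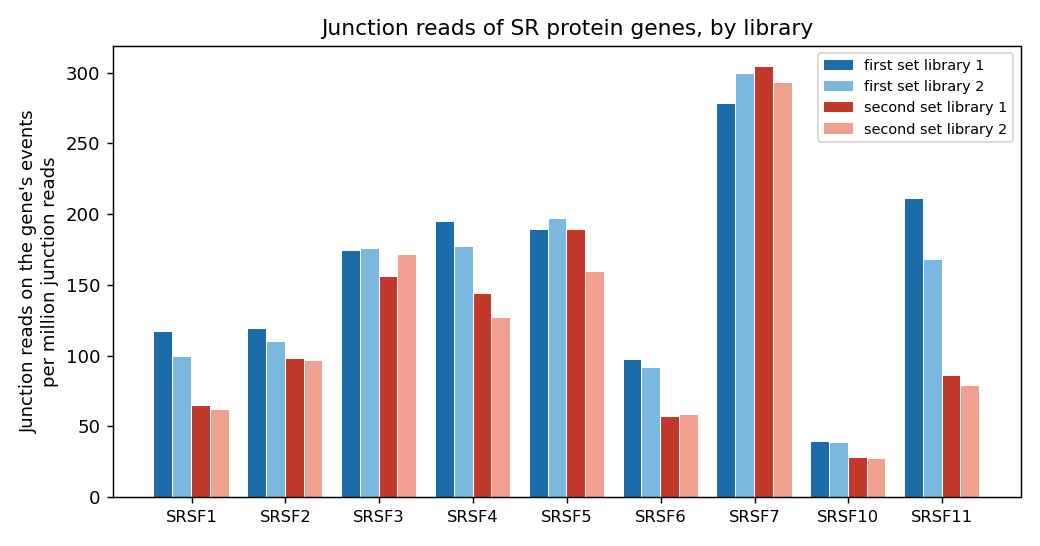
Bars give the junction reads on each gene's skipped exon events per 1000000 junction reads of the library, summed over all events. Each gene has 4 bars, blue for the first set and red for the second. SRSF11 has 210.4 and 167 for the first set, then 85.7 and 78.7 for the second, and SRSF7 lies between 278 and 304.

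Genes that act with the SR proteins were taken from a list of 28: other SR and SR-related proteins, the SRPK and CLK kinases that phosphorylate them, and their import receptor TNPO3. Of these, 26 had tested events, 186 in all. Called events numbered 5 (2.69%, against 2.71% of all tested events), 1 higher and 4 lower in the first set, in CLK4, NKTR and PNISR. In PNISR, an SR-related nuclear protein, a coding exon of 54 nt was included at 0.649 and 0.611 for the first set, then at 0.507 and 0.512 for the second, from 221 to 362 reads, with a difference of 0.12 and FDR 0.0379 per the authors' deposited table. An 836-nt poison exon of the kinase gene CLK4 had 2 events; the deeper one had levels of 0.124 and 0.160 against 0.253 and 0.327, from 62 to 113 reads, with a difference of -0.148 and FDR 0.0156 per the authors' deposited table. The NKTR events had between 2 and 60 reads per library. By the quasi-binomial model none of the 186 events passed the adjusted test.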

How the data were processed

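Poly(A) RNA of 4 libraries was sequenced, and 1 table was used, whose columns, per the file headers, are those of an rMATS skipped exon analysis on junction reads; the rMATS version and the annotation release are not given in the sources used here. The submitters' processing notes name cutadapt, STAR and the build hg19, and coordinates are the table's, with starts counted from 1. The deposited table gives whole-number counts of inclusion and skipping reads for 2 libraries in each of 2 sets, and the authors' inclusion levels as fractions. Its difference, a score from -1 to 1, is the first set's mean minus the second's. The p-value and FDR in the deposited table are the authors' own, adjusted over all 65601 events; recomputed FDR values matched them and inclusion levels differed by at most 0.0005.

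Inclusion levels were recomputed from the reads with Python 3.11.15, with 95% Wilson intervals of the read share moved to the inclusion scale; these cover counting error only. Exons were matched to GENCODE 29 (GRCh38) by the spacing of a gene's exon boundaries, without converting coordinates: 97.0% of events and 42 of the 43 SR gene events matched. A quasi-binomial model, with a dispersion moderated by limma 3.58.1 (R 4.3.3) toward a prior from the 10059 events with at least 5 expected reads of each form, and not under 1, was fitted to all 54503 tested events. This prior was chosen after a first form, with the prior taken from all tested events, found none of the changed events in simulated data; no result of the real data had been written by that form, and the present form recovered most of them. The number of real events past the test was not computed with the first form. Limma on the log2 ratio of the deposited counts, with a pseudocount of 0.5, and a fit with precision weights were alternatives, as were other read minimums, thresholds and left-out libraries. Adjustment was by Benjamini-Hochberg over all tested events. Quasi-binomial p-values set a difference against scatter between the deposited libraries, taken mostly from the 10059 events of the prior. That prior had a dispersion of 3.66 and 30.7 degrees of freedom, so an event's own scatter had little weight.

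Within a gene, the text names the deepest event of each poison exon, each event called or past the quasi-binomial test, and the deepest other event with a mean level between 0.05 and 0.95; other events named were chosen after their values were seen. The genes and lists were chosen with earlier results of these data known. The sequences of some exons with a stop codon are not reported here.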

Additional observations from a re-analysis of the deposited data

How the results depend on the processing

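No paired analysis was possible because the cells of the table carry no replicate numbers. The count of 0 called SR gene events was also 0 under lower read minimums and adjustment over tested events. It became 1 (the 175-nt exon of SRSF4) at a difference of at least 0.05. A higher read minimum, a difference of at least 0.2, an FDR under 0.01 and 1 event per exon could not raise it. The 0 recorded for each left-out library does not show that the result holds. Dropping library 1 took that exon's difference past 0.1 in size, to -0.140 (first set) or -0.110 (second set). Dropping library 2 instead gave -0.0456 or -0.0756. By the quasi-binomial model the count of 0 was also 0 with unweighted limma, which passed no event of the table and so carries no information, became 4 with limma and precision weights, and ranged from 0 to 5 with each library left out in turn. The 5, in SRSF1, SRSF2 and SRSF11, came without library 1 of the second set, where 1.35% of all tested events passed; the spread then comes from the first set alone. The median difference of 0.000976 was 0.00247 with 1 event per exon and -0.0314 over events of intermediate inclusion, and ranged from 0.00000 to 0.00281 with libraries left out; the cause was not tested. The 5 events with an FDR under 0.05 were 3 at an FDR under 0.01, and 3 to 5 of them kept at least 0.5 times their difference with a library left out; the lowest count came when library 2 of set 2 was dropped. Of the 14 events whose sets did not overlap, 12 to 14 did so. These left-out counts, and the background at 500 reads, were chosen after seeing the data. Of 23 exons followed singly under 6 alternatives, 15 kept the sign of their difference under all 6, and 6 changed it under 1 alternative each, by leaving out a library of the second set. In the other 2, the 98-nt exon of SRSF2 and the 69-nt exon of SRSF7, the difference became 0 when 1 library of the first set was left out. The poison exons of SRSF4 measured at low levels rest on 0 to 17 inclusion reads per library.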
